A study of Mus musculus with 8 samples.

Results

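Zbp1, Ripk1, Ripk3, Mlkl, Casp8, Tnfsf10, Fas, Daxx and Xaf1 are genes of necroptosis, of the death-receptor pathways that feed into it, and of the interferon-linked apoptosis machinery beside them. These 9 genes were taken by symbol from the 27998 genes of the count tables, and all 9 passed the filter on low counts that kept 12042 genes over the whole compartment. Wildtype mice aged 12 to 14 weeks, on a C57Bl/6 background, received a subcutaneous injection of 50000 IU recombinant mouse IFNα per 20 g body weight, or 100 µl PBS. Bone marrow LK (Lin-, cKit+) cells, enriched with CD150+ CD48- CD34- HSCs, were profiled by 10x 3′ single-cell RNA sequencing following PBS (control) or at 3, 24 and 72 h from the IFNα injection. Each time point was 1 library of 4 mice told apart by hashtags, so that time point and library cannot be told apart.

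Cells with 1 mouse's hashtag, at least 700 genes and at most 5% mitochondrial UMIs numbered 2474 in the control library, 1661 at 3 h, 3462 at 24 h and 2449 at 72 h. Median depth was 18964.5, 12017, 18953.5 and 14763 UMIs per cell in the same order, so the 3 h cells were the shallowest. Control mouse 4 gave 58 cells and 1102706 UMIs, whereas the other 15 mice gave 330 to 1240 cells. Barcodes without a hashtag made up 17.2% at 3 h and 4.37% to 5.45% in the other libraries. Counts were summed per mouse, and a level is given in CPM, the usual scaling of a gene's UMIs by all UMIs of that mouse. The sorted gene Kit was detected in every mouse at 76.9 to 123 CPM, and libraries shared at most 1 kept barcode.

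Necroptosis is a lytic form of programmed cell death. The nucleic acid sensor ZBP1 or the death-domain kinase RIPK1 recruits the kinase RIPK3, which phosphorylates the pseudokinase MLKL, and MLKL then permeabilises the plasma membrane. Caspase-8 cleaves both kinases and so holds necroptosis back while it drives apoptosis downstream of death receptors such as FAS or the receptor of TRAIL, the ligand encoded by Tnfsf10. Several of these genes are known interferon-stimulated genes, and in HSCs cell death under inflammation is one of the processes weighed against the push into the cell cycle.

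All 9 genes are protein-coding in the mm10 (GRCm38) annotation. Zbp1 lies on chromosome 2 (173206612 to 173218923, minus strand) and Mlkl on chromosome 8 (111311797 to 111338177, minus strand). Ripk1 lies on chromosome 13 (34002363 to 34037147, plus strand) and Ripk3 on chromosome 14 (55784995 to 55788865, minus strand). Casp8 lies on chromosome 1 (58795374 to 58847503, plus strand), Tnfsf10 on chromosome 3 (27317028 to 27342427, plus strand) and Fas on chromosome 19 (34290666 to 34327772, plus strand). Daxx lies on chromosome 17 (33909414 to 33915590, plus strand) and Xaf1 on chromosome 11 (72301629 to 72313733, plus strand). On their own strand Ripk1 overlaps the gene model Gm17084, Casp8 Gm37760 and Fas Gm27818, none of which the count tables list, and the other 6 genes overlap none. Type I interferon acts through the interferon-stimulated response element (ISRE). Windows from 250 bases before to 50 bases after each RefSeq start site (build GRCm38.p6) were searched on both strands for the ISRE core GAAANNGAAA, which 3.44% of 32851 such windows hold, and for the same core without its first base, AAANNGAAA, which 10.6% hold and which every match of the longer core contains. The shorter form was added after the matches of the longer one were known. Windows were matched for 8 of the 9 genes, all but Zbp1. The longer core was found in a single window, the second of the 2 start sites of Ripk1, from position -5 to 5 around the start. The shorter one lay also at -53 to -45 and -31 to -23 in the window of Tnfsf10 and at -17 to -9 in that of Xaf1. The windows of Mlkl, Casp8, Ripk3, Daxx and Fas hold neither, which says only that these letters are not in the bases searched. The following stretches, from 150 bases before to 10 bases after the start site and 5′ to 3′ on the strand of the gene, are shown since they set a kinase gene that was not called at 3 h beside 3 genes that rose, and capitals mark every match.
Tnfsf10 (chr3:27316927-27317086, plus strand): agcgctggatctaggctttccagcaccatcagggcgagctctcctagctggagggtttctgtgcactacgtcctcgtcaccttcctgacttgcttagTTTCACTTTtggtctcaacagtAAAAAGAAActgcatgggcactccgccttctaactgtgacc
Xaf1 (chr11:72301479-72301638, plus strand): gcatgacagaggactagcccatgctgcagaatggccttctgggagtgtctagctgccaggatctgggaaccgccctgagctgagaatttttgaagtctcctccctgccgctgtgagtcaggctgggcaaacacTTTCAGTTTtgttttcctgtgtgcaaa
Mlkl (chr8:111338196-111338355, minus strand): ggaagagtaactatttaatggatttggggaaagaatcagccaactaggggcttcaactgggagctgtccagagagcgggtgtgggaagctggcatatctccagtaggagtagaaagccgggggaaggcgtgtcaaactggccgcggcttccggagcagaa
Ripk1, second start site (chr13:34002724-34002883, plus strand): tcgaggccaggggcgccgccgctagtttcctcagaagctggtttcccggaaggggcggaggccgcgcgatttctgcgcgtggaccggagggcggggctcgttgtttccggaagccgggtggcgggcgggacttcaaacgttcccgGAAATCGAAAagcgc

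Over the whole compartment at 3 h, the sensor Zbp1, the executioner Mlkl, the ligand Tnfsf10, Daxx and Xaf1 were up-regulated, Casp8 rose by less than the fold threshold, and the kinases Ripk1 and Ripk3 and the receptor Fas did not pass the test. A gene was called where the adjusted p of edgeR's quasi-likelihood test, corrected over all genes tested, was below 0.05 and the log2 fold change exceeded 1 in either direction. With 5 of 9 genes called at 3 h, the background was 6.9% of the 12042 genes tested (629 higher and 202 lower). Without composition scaling the median of all genes at 3 h was -0.18 instead of -0.03 on the log2 scale, and 529 of the calls were higher and 302 lower. The whole compartment mixes lineages: the summed level of 12 myeloid progenitor marker genes was 13720 to 18850 CPM in control mice and 7094 to 10530 CPM at 3 h, and fewer cells of a type and less RNA per cell cannot be told apart in such sums. Markers of mature macrophages summed to at most 13.8 CPM and those of late neutrophils to at most 3.37 CPM in any mouse. The plasmacytoid dendritic cell list summed to 252 to 259 CPM in control mice and 1058 to 1208 CPM at 3 h, most of it Bst2 (184 to 198 CPM and 972 to 1115 CPM). Without Bst2, itself an interferon-stimulated gene, that list summed to 59.0 to 75.3 CPM and 86.1 to 92.3 CPM, and its defining marker Siglech was at 0 in every 3 h mouse. The part of these shifts in the results was not tested.

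**Figure D1:**
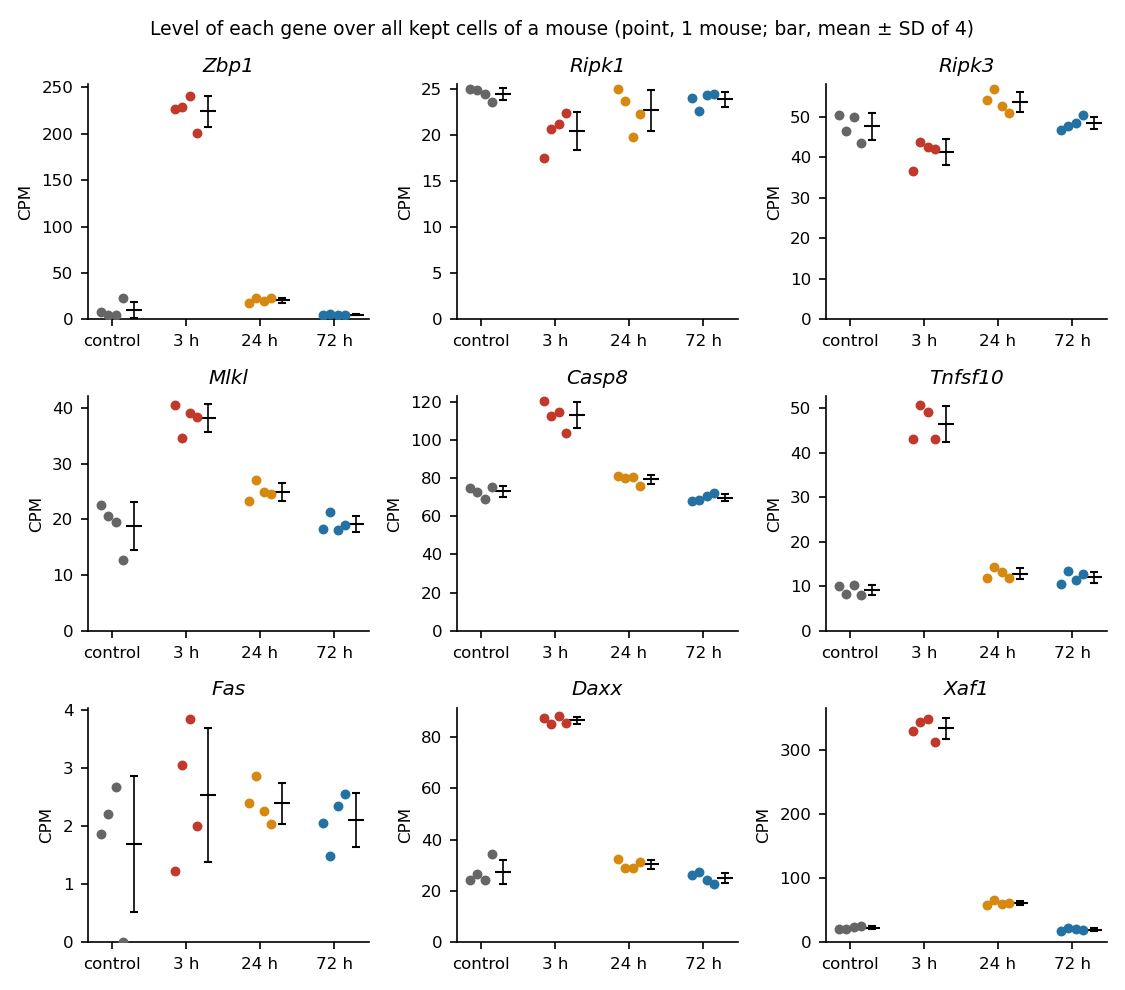
CPM of the 9 genes (vertical axes, linear and starting at 0) at each time point (horizontal axes). Each point is 1 mouse and each bar the mean ± SD of 4 mice. Zbp1 and Xaf1 at 3 h lie far above all other time points and Ripk1 stays between 17.5 and 25.0 CPM throughout, while 1 control mouse stands out for Zbp1 at 22.7 CPM.

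Zbp1, the sensor that couples Z-form nucleic acids to RIPK3, stood at 7.70, 4.66, 5.14 and 22.7 CPM in the 4 control mice and at 227, 229, 240 and 200 CPM at 3 h. At 24 h the level was 17.7, 22.8, 19.4 and 23.1 CPM, and at 72 h 5.25, 5.75, 4.62 and 4.42 CPM. The 3 h mice did not overlap with any other group, and at 24 h all but control mouse 4 lay below the treated mice. The fitted log2 fold change over control was 5.30 ± 0.15 (SE) at 3 h (edgeR adjusted p = 4.8e-18) and 1.75 ± 0.17 at 24 h (adjusted p = 6.9e-08). At 72 h it was -0.32 ± 0.23 (adjusted p = 0.29). In control mouse 4, the mouse of fewest cells, 17 of 25 Zbp1 UMIs came from a single MK progenitor-like cell, and without that cell its level was 7.35 CPM. Leaving this mouse out gave a log2 fold change of 5.4 at 3 h.

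The kinases of the pathway were not called at 3 h. Ripk1 was at 25.0, 24.9, 24.4 and 23.6 CPM in control mice and at 17.5, 20.6, 21.2 and 22.3 CPM at 3 h. Its log2 fold change with composition scaling was -0.12 ± 0.08 (edgeR adjusted p = 0.28), and the sign turned to 0.10 when cells were thinned to equal UMIs. Ripk3 was at 50.4, 46.4, 49.9 and 43.5 CPM in control mice and at 36.7, 43.8, 42.6 and 42.1 CPM at 3 h, with a log2 fold change of -0.08 ± 0.06 (adjusted p = 0.31). In plain CPM every 3 h mouse lay below every control mouse for Ripk1, whereas the groups overlapped for Ripk3. At 24 h Ripk3 stood at 54.0, 56.9, 52.7 and 50.8 CPM, above every control mouse, but by only 0.16 ± 0.05 on the log2 scale (adjusted p = 0.033).

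Mlkl, whose product ruptures the membrane, was at 22.5, 20.6, 19.6 and 12.7 CPM in control mice and at 40.6, 34.7, 39.2 and 38.5 CPM at 3 h. The groups did not overlap, and the log2 fold change of 1.04 ± 0.08 (edgeR adjusted p = 8.8e-10) lay just past the threshold of 1. Without composition scaling it was 0.90, short of that threshold. By 24 h the level was 23.3, 27.0, 24.9 and 24.6 CPM, a log2 fold change of 0.30 ± 0.08 (adjusted p = 0.0062), and at 72 h it lay among the control values at 18.1 to 21.4 CPM.

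Casp8, the protease that restrains necroptosis, was at 74.7, 72.6, 69.3 and 75.3 CPM in control mice. At 3 h it was at 120, 113, 115 and 104 CPM, above every control mouse, and the log2 fold change of 0.79 ± 0.05 was well separated from 0 (edgeR adjusted p = 4.6e-12) while below the threshold of 1.

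Tnfsf10, encoding TRAIL, was at 10.1, 8.21, 10.3 and 8.16 CPM in control mice and at 43.0, 50.6, 49.1 and 43.0 CPM at 3 h, a log2 fold change of 2.44 ± 0.10 (edgeR adjusted p = 2.1e-15). At 24 h (11.8 to 14.4 CPM) and at 72 h (10.5 to 13.3 CPM) every mouse still lay above the highest control mouse, by log2 fold changes of 0.46 ± 0.10 and 0.34 ± 0.11 (adjusted p = 0.0016 and 0.017). Tnfsf10 was the only one of the 9 genes with an adjusted p below 0.05 at 72 h, a level that 37.4% of all genes reached. Within single classes of cells, no Tnfsf10 change at 72 h had an adjusted p below 0.05, and the log2 fold change ran from -0.62 ± 0.27 in the HSC-like class (adjusted p = 0.27), where 3 of 4 mice lay below every control mouse, to 0.62 ± 0.44 in the erythroid progenitor-like class (adjusted p = 0.47). TRAIL is also made by T and NK cells. The list of 6 T and NK markers summed to 341 to 621 CPM in control mice and 291 to 388 CPM at 3 h, nearly all of it Nkg7. At 3 h Cd3e and Cd3g were at 0 in every mouse, Cd3d reached 0.611 CPM, and the NK markers Klrb1c and Ncr1 reached 1.22 and 1.47 CPM, against 0.963 and 0.321 CPM in control mice. The part of such cells in the Tnfsf10 change was not tested. Fas, the death receptor, was close to its detection limit, at 1.87, 2.21, 2.68 and 0 CPM in control mice, where 3 UMIs in control mouse 4 would have been 2.72 CPM. At 3 h it was at 1.22, 3.06, 3.86 and 2.02 CPM, overlapping with the controls, and a difference was not detectable at this depth (log2 fold change 0.44 ± 0.30, adjusted p = 0.25).

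Daxx, a histone chaperone and FAS-binding protein, was at 24.2, 26.6, 24.4 and 34.5 CPM in control mice and at 87.3, 85.2, 88.3 and 85.4 CPM at 3 h, a log2 fold change of 1.91 ± 0.07 (edgeR adjusted p = 1.6e-16). Xaf1, an antagonist of the caspase inhibitor XIAP, was at 21.1, 21.1, 24.3 and 25.4 CPM in control mice and at 330, 344, 349 and 313 CPM at 3 h. At 24 h it was at 58.2, 66.6, 59.7 and 62.3 CPM, and at 72 h at 18.4, 22.5, 20.5 and 19.1 CPM. Its log2 fold changes of 4.05 ± 0.07 at 3 h (edgeR adjusted p = 1.5e-22) and 1.48 ± 0.07 at 24 h (adjusted p = 9.6e-14) went with groups that did not overlap, and at 72 h it was -0.15 ± 0.08 (adjusted p = 0.14).

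Along the time course 2 of 9 genes, Zbp1 and Xaf1, were called at 24 h against control, where 2.22% of all genes were called. By edgeR 7 of the 9 had an adjusted p below 0.05 at 24 h, against 28.3% of all genes. Among them were Casp8 (log2 fold change 0.14 ± 0.05, adjusted p = 0.020) and Daxx (0.27 ± 0.07, adjusted p = 0.0040), both short of the fold threshold. None of the 9 was called at 72 h by edgeR's quasi-likelihood or likelihood ratio test or by DESeq2, where 2.86% of all genes were, and 1 had an unadjusted p below 0.05. Between 3 and 24 h, 4 of 9 were called lower, against 3.55% of all genes in either direction, 74 of them higher and 353 lower. Their log2 fold changes were -3.55 ± 0.12 for Zbp1, -2.57 ± 0.06 for Xaf1, -1.98 ± 0.09 for Tnfsf10 and -1.64 ± 0.06 for Daxx. Between 24 and 72 h, Zbp1 (-2.07 ± 0.18) and Xaf1 (-1.63 ± 0.07) were called lower, with 0.756% of all genes called. The comparisons of 3, 24 and 72 h with control share the same 4 control mice.

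Classes of cells were named from marker genes in the control clusters and carried over to the treated cells. The HSC-like class held 161 control and 278 3 h cells, the LMPP-like class 346 and 251, the myeloid progenitor-like class 727 and 275, the erythroid progenitor-like class 203 and 111, and the MK (megakaryocyte) progenitor-like class 278 and 195. The myeloid progenitor-like class pooled several clusters. Those with Mpo, Irf8 or S100a8 among their 10 leading genes held 283, 254 and 190 control and 107, 128 and 40 3 h cells. The part of this shifting mix in changes within the class was not tested. In the HSC-like cluster all 8 HSC markers were detected but only Hlf was among its 10 leading genes, which also held Jchain, Mzb1, Ltb and the interferon-stimulated gene Ly6a. Another 6 clusters, with 699 control and 534 3 h cells, stayed unnamed and entered only the whole compartment. So did a named basophil, mast cell and eosinophil progenitor-like cluster, with 60 control and 17 3 h cells. The largest unnamed cluster, of 260 control and 195 3 h cells, also had Hlf, Ly6a and Ltb among its 10 leading genes. It held the LMPP marker Dntt beside them, so Hlf was not particular to the HSC-like class. Control mouse 4 had at least 10 cells only among the myeloid progenitor-like cells, so the other classes compare 3 control with 4 treated mice. Fas passed the filter only in the myeloid class, where it was at 1.55 ± 1.06 CPM in control mice and 3.36 ± 1.78 CPM at 3 h (SD, n = 4). There 3 of 4 treated mice lay above every control mouse, but Fas was not called and rested on 50 control and 22 3 h UMIs.

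Zbp1, Tnfsf10, Daxx and Xaf1 were called higher at 3 h in each of the 5 classes, Mlkl in 3 and Casp8 in 2 of them. In the HSC-like class 6 of 8 genes tested were called (5.87% of all genes), in the LMPP-like class 4 of 8 (4.63%), in the myeloid progenitor-like class 4 of 9 (4.47%), in the erythroid progenitor-like class 6 of 8 (5.06%) and in the MK progenitor-like class 5 of 8 (3.87%). Ripk1 and Ripk3 were called in no class at any time. Their log2 fold changes at 3 h ran from -0.26 to 0.39 for Ripk1 and from -0.22 to -0.01 for Ripk3. At 24 h Ripk3 in the erythroid progenitor-like class rose by 0.57 ± 0.15 on the log2 scale (edgeR adjusted p = 0.011). This was short of the fold threshold, and the level was 36.6 to 41.4 CPM against 21.7 to 32.8 CPM in control mice. In that comparison 12.4% of all genes had an adjusted p below 0.05. In the other classes the Ripk3 change at 24 h ran from -0.11 to 0.19 (edgeR adjusted p = 0.52 to 0.86).

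**Figure D2:**
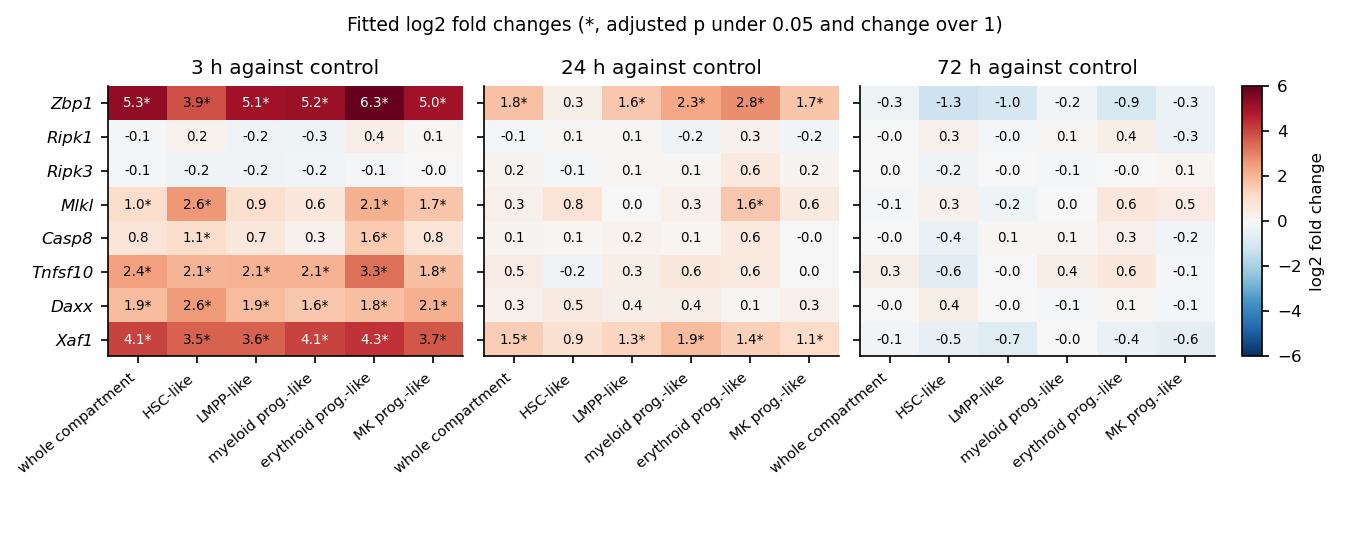
Log2 fold changes over control (colour and printed value) of 8 genes in rows, at 3, 24 and 72 h in the 3 panels. Columns are the whole compartment and the 5 cell classes, and an asterisk marks a call. Fas is left out since it was tested in 1 class only. Zbp1 and Xaf1 are called in all columns at 3 h and in all but the HSC-like class at 24 h, and no gene is called at 72 h.

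The change of Mlkl differed between classes. Within the HSC-like class Mlkl was at 11.6, 8.03 and 17.5 CPM in 3 control mice and at 78.2, 53.8, 71.4 and 65.1 CPM at 3 h, a log2 fold change of 2.60 ± 0.29 (edgeR adjusted p = 2.5e-09). In the myeloid progenitor-like class it was at 28.9, 26.4, 23.9 and 9.06 CPM in control mice and at 31.6, 33.4, 35.7 and 42.6 CPM at 3 h, a log2 fold change of 0.61 ± 0.13 (adjusted p = 3.3e-04), and in the LMPP-like class the log2 fold change was 0.95 ± 0.15 (adjusted p = 8.8e-06). In CPM, every mouse of the HSC-like class at 3 h lay above every mouse of the other 4 classes. The HSC-like control values rested on 20 Mlkl UMIs in all, and the 9.06 CPM on 16 myeloid progenitor-like cells of control mouse 4. The myeloid progenitor-like minus the HSC-like change was -2.09 ± 0.32 on the log2 scale (edgeR adjusted p of the interaction = 1.9e-06), and it stayed past the test when any 1 mouse was left out (-2.40 to -1.91). The LMPP-like minus the HSC-like change was -1.70 ± 0.34 (adjusted p = 0.0022), a call that was lost without control mouse 1 (-1.59, adjusted p = 0.064). For the erythroid progenitor-like (-0.49 ± 0.46) and MK progenitor-like (-0.97 ± 0.41) classes the difference did not pass the test (adjusted p = 0.74 and 0.54). Of the 8 genes tested for such a difference, 1 passed for the LMPP-like class (background 0.579% of 10703 genes), 4 for the myeloid progenitor-like (2.23%) and 1 for the erythroid progenitor-like class (2.09%). For the MK progenitor-like class edgeR's quasi-likelihood test passed 0 (0.0747%), with 2 at an unadjusted p below 0.05 and 0 also without the mouse as a block.

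The protease gene Casp8 and the chaperone gene Daxx also differed between HSC-like and myeloid progenitor-like cells. Casp8 was at 95.4, 96.3 and 68.1 CPM in the HSC-like class of control mice and at 169, 153, 169 and 130 CPM at 3 h (log2 fold change 1.06 ± 0.16, edgeR adjusted p = 2.7e-06), and the call was lost by the fold threshold with library size alone (0.85), without control mouse 3 (0.91) or without 3 h mouse 3 (0.99). In the myeloid progenitor-like class it was at 82.0, 77.4, 69.7 and 86.1 CPM in control mice and at 86.2, 83.4, 76.7 and 89.9 CPM at 3 h, where the groups overlapped and the log2 fold change was 0.26 ± 0.07 (adjusted p = 0.0083). The myeloid progenitor-like minus the HSC-like change was -0.85 ± 0.18 (edgeR adjusted p of the interaction = 0.0011) and stayed past the test when any 1 mouse was left out (-0.96 to -0.70). For Daxx, which rose in every class, this difference was -0.97 ± 0.26 (adjusted p = 0.018). The Daxx call was lost without control mouse 1 (-0.89), 2 (-1.0) or 3 (-0.96), without 3 h mouse 2 (-0.88) or 3 (-0.80), and with library size alone (-0.86). Casp8 also rose in the erythroid progenitor-like class, from the lowest control level (24.9, 28.5 and 29.1 CPM) to 49.9, 73.1, 71.5 and 89.7 CPM.

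**Figure D3:**
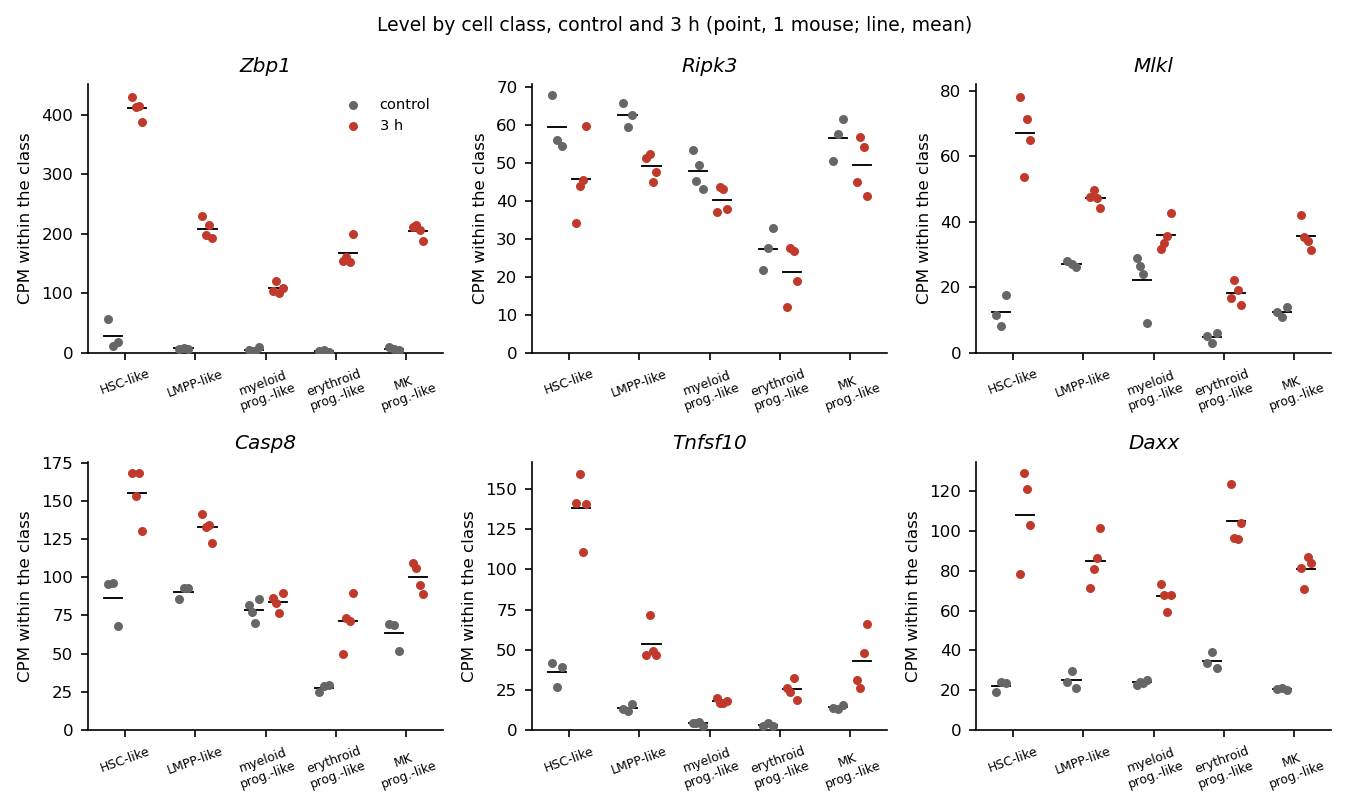
CPM within each class (vertical axes, linear and starting at 0) of 6 genes in the 5 classes (horizontal axes), with control mice in grey and 3 h mice in red. Each point is 1 mouse and each line the mean of 3 or 4 mice. Mlkl and Tnfsf10 at 3 h are highest in the HSC-like class, Casp8 of the myeloid progenitor-like class overlaps between control and 3 h, and 1 control mouse has 56.4 CPM of Zbp1 in the HSC-like class.

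In CPM, Zbp1 at 3 h was highest in the HSC-like class, where its fold change was the smallest of the 5 classes. In that class it was at 56.4, 10.7 and 17.5 CPM in control mice and at 430, 414, 416 and 388 CPM at 3 h (log2 fold change 3.86 ± 0.22, edgeR adjusted p = 2.5e-18). In the erythroid progenitor-like class it was at 2.71, 4.01 and 0.737 CPM in control mice and at 155, 161, 153 and 200 CPM at 3 h (log2 fold change 6.31 ± 0.22, adjusted p = 3.7e-20). These erythroid control values rested on 16 Zbp1 UMIs in all, and leaving out 1 mouse gave log2 fold changes of 5.8 to 6.8. The erythroid progenitor-like minus the HSC-like change was 2.37 ± 0.43 (edgeR adjusted p of the interaction = 1.7e-04) and the myeloid progenitor-like minus the HSC-like change was 1.28 ± 0.32 (adjusted p = 0.010). Both rested on control mouse 1: in its HSC-like class 31 of 39 Zbp1 UMIs came from 4 of 67 cells, and without this mouse the differences were 1.30 and 0.28 (adjusted p = 0.37 and 0.89) and the log2 fold change in the HSC-like class was 5.0, no longer the smallest (4.98 in the LMPP-like class). In all, 7 control cells, 456 cells at 3 h, 27 at 24 h and 2 at 72 h held at least 5 Zbp1 UMIs.

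The order of the classes at 3 h put HSC-like cells first for Zbp1 (412 ± 17.6 CPM, SD, n = 4), Xaf1 (530 ± 54.0), Tnfsf10 (138 ± 20.2) and Mlkl (67.1 ± 10.4), each above every mouse of the next class. The share of all genes that separate classes in this way was not determined, and the unnamed clusters were not ranked. For Casp8 (155 ± 18.2 CPM in HSC-like and 133 ± 7.89 CPM in LMPP-like cells) and Daxx (108 ± 22.7 in the HSC-like and 105 ± 12.9 CPM in the erythroid progenitor-like class) the first and second classes overlapped. The lowest class at 3 h was the myeloid progenitor-like one for Zbp1 (108 ± 8.87 CPM), Xaf1 (190 ± 6.68), Tnfsf10 (17.9 ± 1.52) and Daxx (67.1 ± 5.88), although the neighbouring class overlapped with it for Tnfsf10 and Daxx. Before treatment, HSC-like cells already led for Tnfsf10 (35.9 ± 8.02 CPM, n = 3), Xaf1 (52.3 ± 10.7) and, with the spread given above, Zbp1. Ripk3 was lowest in the erythroid progenitor-like class in control mice (27.3 ± 5.54 CPM) and at 3 h (21.3 ± 7.41), below every mouse of the next class at both times. These levels are shares of a class's UMIs. Control clusters had a median of 10147 UMIs per HSC-like and 30445.5 to 35468.5 per myeloid progenitor-like cell. At 3 h the 278 HSC-like cells held fewer UMIs than the 275 myeloid ones of Mlkl (152 and 250) and Xaf1 (1233 and 1301). They held more of Zbp1 (929 and 736) and Tnfsf10 (297 and 124). The 111 erythroid progenitor-like cells held 415 Zbp1 and 773 Xaf1 UMIs. The order per cell was not determined.

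By 24 h none of 8 genes was called in the HSC-like class (0.639% of all genes called), where by edgeR 2 had an unadjusted p below 0.05: Xaf1 at 0.92 ± 0.17 (adjusted p = 3.9e-04) and Mlkl at 0.84 ± 0.33 (adjusted p = 0.22). Zbp1 there had a log2 fold change of 0.35 ± 0.30 (adjusted p = 0.68), which rested on control mouse 1: without that mouse Zbp1 was called at 1.49 ± 0.40 (adjusted p = 0.029), and without control mouse 3 Xaf1 was called. Zbp1 and Xaf1 were still called in the LMPP-like (1.35%), myeloid progenitor-like (1.67%) and MK progenitor-like (0.566%) classes. In the erythroid progenitor-like class (2.9%) Zbp1 (log2 fold change 2.78 ± 0.30), Mlkl (1.60 ± 0.27) and Xaf1 (1.41 ± 0.18) were called. Mlkl there stood at 9.93, 15, 17.9 and 13.8 CPM at 24 h, above the control mice (3.00 to 5.89 CPM) and overlapping with the 3 h mice (14.6 to 22.1 CPM). At 72 h no gene was called in any class by edgeR's quasi-likelihood test (0.799%, 0.881%, 1.31%, 0.934% and 0.645% of all genes in the HSC-like, LMPP-like, myeloid, erythroid and MK classes). At an unadjusted p below 0.05 there were 4 genes among HSC-like cells, 2 among LMPP-like cells, 1 among MK progenitor-like cells and 0 elsewhere. In these 3 classes the edgeR adjusted p was below 0.05 for 0, 1 and 0 genes, against 3.2%, 5.5% and 4.0% of all genes. At the unadjusted level the share of all genes was not determined. The Zbp1 log2 fold change was then -1.25 ± 0.38 for HSC-like cells (edgeR adjusted p = 0.061) and -1.03 ± 0.33 for the LMPP-like class (adjusted p = 0.075), and the likelihood ratio test called the former and no other. Without control mouse 1 the HSC-like value was -0.11 ± 0.50 (adjusted p = 0.96), and without control mouse 2 or 3 it was called at -1.53 and -1.55. Xaf1 in the LMPP-like class was at -0.73 ± 0.17 (adjusted p = 0.0059), short of the fold threshold.

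Shares of cells with a UMI were compared after each cell was thinned to 5000 UMIs, which left 2439, 1600, 3427 and 2381 cells in the 4 time points. Zbp1 was detected in 4.39% ± 1.88 of control cells (SD, n = 4 mice) and in 62.9% ± 1.74 at 3 h, and Xaf1 in 11% ± 1.72 and 79.3% ± 1.24. With all UMIs of each cell the Zbp1 shares were 10.2% and 85.9%. Mlkl was detected in 6.48% ± 3.17 of control and 17.9% ± 1.61 of 3 h cells, Tnfsf10 in 5.72% ± 1.48 and 23.4% ± 1.84, and Daxx in 15.5% ± 6.19 and 34.8% ± 1.16. In these 5 genes all 3 h mice lay above all control mice, the two-sided exact permutation p was 0.029, the smallest that 4 against 4 mice allow, and the value adjusted over the 27 comparisons was 0.0964. The shares of Ripk1 (11.4% ± 1.03 and 11.1% ± 1.89), Ripk3 (22.4% ± 2.94 and 18.9% ± 2.63) and Fas (1.22% ± 0.92 and 1.16% ± 0.65) overlapped between control and 3 h. That of Casp8 (33.0% ± 6.16 and 43.8% ± 4.06) overlapped through control mouse 4, where 24 of 57 cells (42.1%) held a UMI, while the other control mice were at 29.0% to 31.6% and the 3 h mice at 38.8% to 47.4%. Without that mouse, without 3 h mouse 4, or with 3000 or all UMIs per cell, Casp8 also lay above every control mouse, which made 6 genes. The share of all genes that separate from the control mice in this way was not determined, so these counts have no background beside them.

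**Figure D4:**
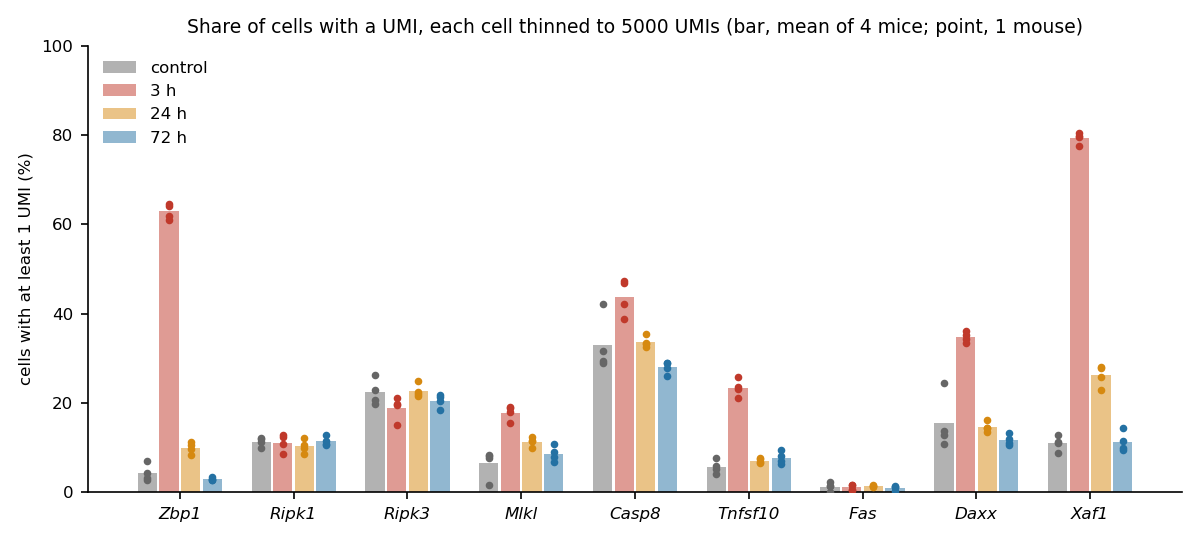
Percentage of cells with at least 1 UMI (vertical axis) of each gene (horizontal axis) after every cell was thinned to 5000 UMIs. Bars are means of 4 mice at control, 3, 24 and 72 h, and points are single mice. The bars at 3 h reach 79.3% for Xaf1 and 62.9% for Zbp1, while those of Ripk1, Ripk3 and Fas stay close to control.

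At this depth Zbp1 was detected in 84.1% ± 4.77 of HSC-like cells and in 40.5% ± 4.53 of myeloid progenitor-like cells at 3 h, the highest and lowest of the 5 classes. Free RNA in a droplet can give such UMIs in cells that do not express the gene, and no class known to lack Zbp1 was at hand. Among the classes of control mice the erythroid progenitor-like one had the lowest share, 0.521%, and the myeloid progenitor-like one had 1.39% ± 1.10. These control shares come from another library with far less Zbp1 RNA, so they set no floor for free RNA at 3 h. A positive cell held 2.54 Zbp1 UMIs on average in the HSC-like and 1.33 in the myeloid progenitor-like class. Zbp1 and Mlkl were detected in the same cell in 24.5% ± 7.87 of HSC-like cells and 5.28% ± 2.74 of myeloid progenitor-like cells at 3 h. The control shares were 1.75% ± 1.61 of HSC-like cells (3 of 147) and 0 of 727 myeloid progenitor-like cells, which allows a share of up to 0.413%. All these class shares are at equal depth, and thinning takes more UMIs from deeper cells. Myeloid progenitor-like control clusters had medians of 30445.5 to 35468.5 UMIs per cell, against 10147 in the HSC-like one. Before thinning, 278 HSC-like cells at 3 h held 152 Mlkl UMIs and 275 myeloid progenitor-like cells held 250. The order of the classes at full depth is not given here. Zbp1, Ripk3 and Mlkl together were detected in 31 of 1600 cells at 3 h, 11 of 3427 at 24 h, 1 of 2381 at 72 h and 0 of 2439 control cells, which allows a share of up to 0.123%. Over the whole compartment at 3 h, Zbp1 and Mlkl were detected together in 12.0% ± 1.24 of cells, with single shares of 62.9% and 17.9%. Whether genes shared cells more often than their single shares alone would give was not tested.

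Of 79 further genes of the pathway, in 5 lists, 73 were tested over the whole compartment. At 3 h 5 of them (6.85%) were called higher and 0 lower by edgeR, a share near the 6.9% of all genes, and 32 (43.8%) had an adjusted p below 0.05, against 38.8% of all genes. At 24 and 72 h 0 were called by edgeR's quasi-likelihood or likelihood ratio test or by DESeq2, with 20 and 22 at an unadjusted p below 0.05, where 2.22% and 2.86% of all genes were called. By edgeR 17 (23.3%) and 18 (24.7%) had an adjusted p below 0.05, less than the 28.3% and 37.4% of all genes. In the necrosome and its regulators 2 of 27 (7.41%) were called, also close to that background: Adar, which edits the double-stranded RNA that ZBP1 can sense, rose from 11.4 ± 2.79 to 44.0 ± 3.51 CPM (log2 fold change 1.96 ± 0.09, adjusted p = 8.5e-15), and Tlr3, a receptor for double-stranded RNA, from 0.225 ± 0.23 to 2.93 ± 1.13 CPM (3.42 ± 0.43, adjusted p = 1.1e-06). The median of this list was -0.05 and that of all 12042 genes -0.03 on the log2 scale. Tlr3 in control mice was close to its detection limit, where 3 UMIs would be 0.16 CPM in control mouse 1 and 2.72 CPM in control mouse 4. Among 11 tested death receptors, ligands and decoys, Tnf alone was called, from 2.87 ± 0.59 to 5.23 ± 1.23 CPM (1.08 ± 0.21, adjusted p = 2.3e-04), with a list median of -0.01. Of 9 partners of DAXX, the nuclear body genes Sp100 (48.9 ± 4.57 to 280 ± 24.4 CPM, log2 fold change 2.62 ± 0.06, adjusted p = 1.9e-19) and Pml (log2 fold change 1.81 ± 0.08, adjusted p = 2.9e-14) were called, with a list median of -0.04. Of 14 caspases and inhibitors downstream of death receptors 0 were called by the same 3 tests (list median -0.18), while 11 had an unadjusted p below 0.05. Of 12 membrane repair genes of the ESCRT-III complex 0 were called (list median 0.07), while 9 had an unadjusted p below 0.05. The edgeR adjusted p was below 0.05 for 9 genes of the caspase list (64.3%) and 6 of the membrane repair list (50%), against 38.8% of all genes.

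Over the 16 mice, the genes whose log2 CPM followed Zbp1 most closely were Isg15 (Pearson r = 0.996), Apol9b (0.994) and Ifit1 (0.993). Xaf1 ran closest to Oasl1 (0.999), Oasl2 (0.998) and Dhx58 (0.998). For Mlkl the closest were Phf11c (0.979), F830016B08Rik (0.975) and Apobec1 (0.973), for Casp8 Ifi47 (0.989), Ifi35 (0.989) and Apobec3 (0.986), for Tnfsf10 Parp11 (0.989), Trim12a (0.987) and Gbp7 (0.987), and for Daxx Pnpt1 (0.994), Ehd4 (0.992) and 9930111J21Rik2 (0.990). These 18 genes had log2 fold changes of 1.04 to 6.88 at 3 h. Ripk1 (Eno3, Rapgef2 and Tmem63a, 0.769 to 0.803), Ripk3 (Trmt1, Zfp260 and Acsf3, 0.857 to 0.865) and Fas (Gm44210, Galnt4 and Epm2a, 0.944 to 0.953) ran with other genes, whose log2 fold changes at 3 h lay between -0.32 and 0.21. The mice fall into 4 time points of 1 library each, and for Fas control mouse 4 stood apart at 0 CPM. These coefficients are a description over mice that share libraries.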

How the data were processed

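Per the submitters' processing notes and the study's methods, the authors aligned the reads of each 10x library to mm10 with Cell Ranger 3.1.0. The deposited matrices hold raw UMI counts per gene and barcode, and the deposited Seurat hashtag tables give each barcode's mouse. Kept barcodes had 1 hashtag, at least 700 genes and at most 5% mitochondrial UMIs, and doublets were removed by hashtag only. Control cells were clustered without the 9 genes (Scanpy 1.11.5). Clusters of at least 30 cells were named where at least 3 markers of a class were detected and that class had more markers among the 10 leading genes than any other. Treated cells took their class from the nearest control cells after correction by mutual nearest neighbours. Names were rebuilt here and may differ from those of the authors.

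Counts were summed per mouse, or per mouse and class with at least 10 cells, and tested with edgeR 4.0.16 (quasi-likelihood, TMM scaling, filterByExpr, all time points in 1 fit, Benjamini-Hochberg adjustment over all genes tested). The difference between classes at 3 h was an interaction with mouse as a block. Standard errors are the absolute log2 fold change divided by the square root of F, and CPM is without TMM scaling. Mice are the replicates, and p-values set a difference between time points, each of 1 library, against the spread between mice within libraries. Floors cover counting error only. The share that a count of 0 allows is 3 divided by the cells pooled over mice, which leaves out the spread between mice. Counts at an unadjusted p below 0.05 have no share of all genes at that level beside them. Alternatives were DESeq2 1.42.0, the likelihood ratio test, other scalings, filters, cell sets and label transfers, and leaving out each mouse. The fits were also run on simulated counts with the same spread for every gene and no library effect. That setting is simpler than these data and cannot vouch for the results. The 9 genes and the lists were chosen with earlier results of these data known. Named genes were the 9, other pathway genes that were called with all 4 mice on 1 side of the control mean, and the 3 genes most correlated with each of the 9.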

Additional observations from a re-analysis of the deposited data

Results flagged for a closer look

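The Zbp1 level of control mouse 4 (22.7 CPM) stood apart from the other 3 control mice, with a gap of 0.831 of the group's range, just above Dixon's critical value, among 36 groups of 4 mice examined, of which about 1 in 20 would stand apart by chance.

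The change at 3 h differed between classes by the interaction test for 6 pairs of gene and class. Of all 10703 genes, 0.579% passed for the LMPP-like, 2.23% for the myeloid progenitor-like and 2.09% for the erythroid progenitor-like class. For the MK progenitor-like class, which held no such pair, the share was 0.0747%. Against the HSC-like class, the log2 change of Mlkl was -2.09 in the myeloid progenitor-like and -1.70 in the LMPP-like class. That of Casp8 was -0.85 and that of Daxx -0.97 in the myeloid progenitor-like class. That of Zbp1 was 1.28 higher in the myeloid progenitor-like and 2.37 higher in the erythroid progenitor-like class. Without control mouse 1, Mlkl in the LMPP-like class (-1.59) and Daxx (-0.89) did not pass the test. Nor did Zbp1 in the myeloid (0.28) and erythroid (1.30) progenitor-like classes. The Daxx call was also lost without control mouse 2 or 3, without 3 h mouse 2 or 3, and with library size alone. Mlkl and Casp8 in the myeloid progenitor-like class stayed past the test when any 1 mouse was left out.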

How the results depend on the processing

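Each count among the 9 genes (calls, differences between classes, or shares above every control mouse) was retaken in 16 refits that left out a mouse, and in other alternatives. Of the pairs of a count and a refit, 420 stayed within 1.5 times of the reported count and 12 moved further. For pairs of a count and another alternative these numbers were 149 and 9. In the HSC-like class the count at 24 h was 1 without control mouse 1 (Zbp1) or 3 (Xaf1), so that leaving out a mouse gave 0 to 1. At 72 h it was 1 (Zbp1) with label transfer without correction or without interferon-stimulated genes, library size alone, the likelihood ratio test or no filter, and 0 to 1 without a mouse (1 without control mouse 2 or 3, 24 h mouse 1 or 72 h mouse 2). In the LMPP-like class at 72 h it was 1 (Zbp1) by library size alone. For the difference from the HSC-like class, label transfer without correction gave 2 genes for the LMPP-like and 3 for the erythroid progenitor-like class, and leaving out a mouse gave 0 to 2, 2 to 4 and 0 to 2 for the LMPP-like, myeloid and erythroid classes. The lowest counts came without control mouse 1, and the 2 came without control mouse 2 (Zbp1 gained) and without 3 h mouse 1 (Daxx gained). Shares of cells lay above every control mouse for 5 genes at 24 h with all UMIs against 3 when thinned, and for 0 to 1 at 72 h without a mouse (Tnfsf10 without control mouse 3). For these counts too, the share of all genes that separate in this way was not determined. With cells thinned to equal UMIs the log2 fold change at 3 h was 0.10 for Ripk1 and -0.22 for Fas. Over all genes, 413 were called at 24 h without a filter and 156 with thinned cells against 267, and 183 at 72 h with thinned cells against 345. The cause of these differences was not tested.

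Hashtag numbers did not pair the mice: deviations of same-numbered mice correlated at -0.06 to 0.09 (median 0.01). With the number as a replicate block, 852, 265 and 347 genes were called at 3, 24 and 72 h against 831, 267 and 345, and of the 9 genes 5, 2 and 0 as without it. Without the mouse as a replicate block, the difference from the HSC-like class passed for 1, 4, 1 and 0 genes in the LMPP-like, myeloid, erythroid and MK classes, as with it. Depth limits Fas and the control level of Mlkl in the HSC-like class, and the 3 control mice of most classes limit the differences between classes.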
